A study of Papio hamadryas with 17 samples.

Results

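Tropomyosin transcripts were examined in RNA-seq libraries of kidney cortex from baboons. All transcripts whose gene name was TPM1, TPM2, TPM3 or TPM4 were taken, each kept as a single transcript, which gave 24 of the 26644 transcripts in the table of females (11 of TPM1, 5 of TPM2, 6 of TPM3 and 2 of TPM4). Of these, 10 were also among the 17119 transcripts of the male table held here in part (7 of TPM1 and 1 each of TPM2, TPM3 and TPM4). The other 14 were not analysed here in males.

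Tropomyosins are coiled-coil proteins that lie end to end along the actin filament and govern which myosins and other proteins reach it. In striated muscle they work with troponin as the calcium switch of contraction, and in other cells they mark out separate sets of actin filaments. Mammals have 4 tropomyosin genes, and each makes many products from alternative starts, internal exons and last exons. In TPM1 and TPM2 the last exon of the striated muscle forms lies upstream of the last exon used in most other cells, and a second, internal start of TPM1 gives short forms found outside muscle.

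The libraries came from biopsies taken under ultrasound guidance, 1 per animal, in 8 females aged 15 to 19 and 9 males aged 6 to 13 (the labels give no unit for age). All animals were untreated and lived on low-salt chow. The study compares the sexes by their co-expression networks. Library names fall into 1 series for females and 2 for males (A with 5 libraries, B with 4), so that sex, age and library series cannot be told apart.

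In 3 libraries, female 1, female 2 and male 6, skeletal muscle genes measured in these data were high, and these libraries are called muscle-rich. Over the 7 skeletal muscle markers in the table of females, the summed signal was 103873 and 154592 in female 1 and female 2, against 2.55 to 23.9 in the other 6 females. Markers of the thick ascending limb, a nephron segment of the kidney, summed to 13.3 to 23.7 in those 2 females against 1825 to 11548, and CLDN16 was at 0 in both. So the label kidney cortex was not borne out by this segment's markers in female 1 and female 2. Male 6 held 1011 of thick limb signal, against 2869 to 10274 in the other 8 males. By summed signal, fibroblast markers were high in all 3 of these libraries, and smooth muscle markers in the 2 females. The 5 fibroblast markers summed to 769 to 1517 in female 1 and female 2 against 84.6 to 550, and the 4 of them in both tables to 3659 in male 6 against 99.8 to 289. The 8 smooth muscle and pericyte markers summed to 1503 to 1743 in the 2 females against 145 to 589, and the 3 in both tables to 176 in male 6, inside the 19.6 to 216 of the other males. Only 2 of these 8, SYNPO2 (840 and 750) and LMOD1, were above all 6 other females in both, and the rest overlapped. Of the 5 fibroblast markers 3 were above all 6 in both, and the rest overlapped. No marker of these 2 lists was at 0 in both muscle-rich females or in all 6 others. Their part in the tropomyosin values was not tested. Signal here is the deposited value minus 1. The smallest step between low values, taken as what 1 read is worth, ran from 0.0531 to 0.318 over the 17 libraries, and 3 reads were worth 0.71 in female 1, 0.947 in female 2 and 0.881 in male 6. Signal was taken as not divided by transcript length, so levels are not compared between genes. Summed over the transcripts in both tables, signal was 540860 in female 1, 670142 in female 2 and 540174 in male 6. In the other 14 libraries this sum ran from 259197 to 440508. Levels of the muscle-rich libraries were not rescaled for this, so narrow margins and overlaps in level depend on scaling.

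TPM1 encodes the alpha chain of fast muscle and heart and also several non-muscle forms. Its 11 transcripts lie on the plus strand of sequence NC_018158.2, where 8 start at 37418735 and 3 start 5740 or 5742 bases downstream. Of the 8, 3 (X5, X6 and X8, by their RefSeq variant numbers) end early at 37442348, and the other 8 of the gene's 11 end at 37448119. The tables give spans and no exons, so no exon content is assigned.

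**Figure D1:**
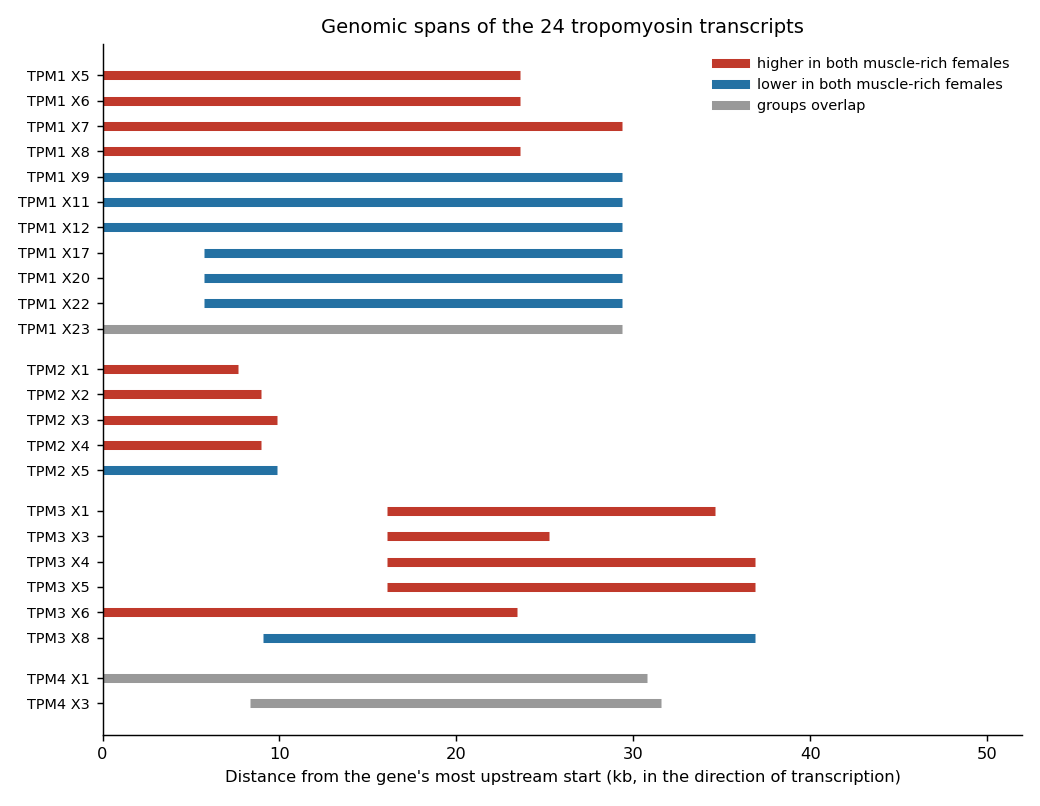
Genomic span of each of the 24 transcripts, drawn from the most upstream start of its gene in kb along the direction of transcription, with 1 bar per transcript. Red bars mark the 13 transcripts higher in both muscle-rich females than in all 6 others, blue bars the 8 that were lower and grey bars the 3 that overlapped. All 3 early-ending TPM1 spans are red, and all 3 spans from the downstream start are blue.

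TPM1 X5 (XM_003901021.2), which runs from the upstream start to the early end, had a signal of 5637 in female 1 and 7723 in female 2. In the other 6 females it was 0 in 4 and at most 0.079, below the signal worth 3 reads in each of them. The 2 groups did not overlap, and since the other females were at or near 0 no fold is given. The other early-ending transcripts followed the same pattern at lower signal. X6 was 15.6 and 9.94 against at most 0.0202, and X8 was 6.82 and 8.17 against at most 0.906. X7 (XM_003901020.2) also starts upstream but ends late, with 35.8 and 43.0 against a lowest, median and highest value of 10.9, 16.0 and 34.7. The margin of X7 between the groups was narrow and depends on scaling.

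The remaining late-ending TPM1 transcripts were lower in both muscle-rich females, except X23. X11 (XM_003901019.2), the leading TPM1 transcript of the other 6 females, was 15.0 in female 1 and 0.0544 in female 2, against 22.6, 32.0 and 40.4. Both values lay under all 6 others, and female 2 stood far below female 1. X22 (XM_009210350.3), from the downstream start, was 10.7 and 9.11 against 15.0, 17.0 and 25.0. It was thus the transcript from the downstream start that was still clearly measured in the muscle-rich libraries.

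The other 4 lower transcripts were under the signal worth 3 reads in both muscle-rich females. X9 was 0.104 and 0.0603 against 4.09, 5.19 and 18.8. X12 was 0.0075 and 0 against 5.07, 13.5 and 25.2. X17, from the downstream start, was 0.0197 and 0.0386 against 2.19, 2.64 and 4.33. X20 (XM_009210349.3), also from the downstream start, was 0.00075 and 0 against 2.33, 7.03 and 8.76. X23 was low in all libraries, at 0.259 and 0.411 against 0.216, 1.42 and 3.79, and the groups overlapped.

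As shares of the signal of all 11 transcripts, which do not depend on scaling between libraries, X5 made up 98.5% and 99.1% of TPM1 in female 1 and female 2. Its highest share in the other 6 females was 0.0799%. X11 took 0.263% and 0.000698% against 25.4%, 33.0% and 35.9%. Grouped by span, the early-ending transcripts took 98.9% and 99.3% against at most 1.20%. Transcripts from the upstream start to the late end took 0.895% and 0.558%, against 65.0%, 70.6% and 80.7% in the others. Those from the downstream start took 0.187% and 0.117%, against 19.3%, 29.0% and 35.0%. TPM1 in the other 6 females was therefore mostly late-ending, with a long-span majority and a minority from the downstream start.

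A low share need not be a low signal. The upstream-start, late-end group summed to a signal of 51.2 and 43.5 in female 1 and female 2, against 49.5, 76.2 and 96.9, so female 1 lay inside the range of the others and female 2 just below it. These sums were not rescaled, and their place against the others depends on scaling. The downstream-start group summed to 10.7 and 9.15 against 20.6, 25.9 and 36.0, without overlap. In bulk samples such as these, fewer cells of a type and less RNA per cell cannot be told apart.

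TPM2 encodes the beta chain, found in skeletal and smooth muscle and in other contractile cells. Its 5 transcripts share a start at 40522653 on the plus strand of NC_018166.2 and differ in their ends. X2 (XM_003911526.3), ending at 40531620, had a signal of 12396 and 18474 in female 1 and female 2, against 0.269, 1.30 and 1.73. The mean of the first 2 was 11901 times the median of the other 6. X5 (XM_009188531.2), ending further downstream at 40532543, went the other way, with 12.9 and 32.7 against 41.8, 45.8 and 83.2. Neither transcript overlapped between the groups.

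The other 3 TPM2 transcripts were higher in both muscle-rich females by smaller factors. X3 was 29.5 and 31.8 against 2.63, 7.70 and 14.1, and X4 was 23.3 and 40.0 against 0.232, 1.64 and 6.25. X1 (XR_638302.2), annotated as non-coding and ending at 40530292, was 31.0 and 34.9 against 3.46, 5.13 and 10.7. Their shares of TPM2 signal were nonetheless at most 0.248% each in female 1 and female 2, where X2 took 99.2% and 99.3% against at most 2.91% elsewhere. X5 took 0.103% and 0.176% against 66.8%, 76.5% and 82.4%. The 2 transcripts with the late end, X3 and X5, summed to a signal of 42.4 and 64.5 against 47.9, 53.8 and 93.8, so that the late-ending TPM2 signal of female 2 lay within the range of the other females. This overlap, in signal that was not rescaled, depends on scaling.

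TPM3 encodes the alpha chain of slow muscle fibres and widely used non-muscle forms. Its 6 transcripts lie on the minus strand of NC_018152.2, between 124491365 and 124528252. X1 (XM_021924110.1), X3 (XM_021924119.1) and X6 (XM_021924130.1) end before the others in the direction of transcription. X1 was 502 and 697 in female 1 and female 2 against at most 0.00143, and X3 was 568 and 724 against at most 0.168. X6 was 455 and 648, and was at 0 in all 6 other females. These 3 early-ending transcripts were thus close to absent outside the muscle-rich females.

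Unlike TPM1 and TPM2, TPM3 had no single dominant transcript in the muscle-rich females. X1 took 31.0% and 32.6% of its signal, X3 took 35.1% and 33.9%, and X6 took 28.1% and 30.3%. Together they made up 94.2% and 96.9%, against at most 0.462% in the other 6. X8 (XM_017947382.1) led there with 54.0%, 69.9% and 88.4%, and had 0.115% and 0% in female 1 and female 2. Its signal was 1.87 and 0 against 22.4, 26.4 and 32.0. The late-ending X4 and X5 were nonetheless higher in the muscle-rich females, X4 at 76.8 and 52.2 against 3.34, 6.68 and 10.6, and X5 at 16.0 and 13.8 against 0.884, 4.23 and 9.72.

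TPM3 reads carry an uncertainty of their own, because 3 loci elsewhere in the genome are annotated as TPM3-like. LOC110744231 was 14.7 and 17.4 against 1.59 to 3.39, LOC108582690 was 9.75 and 11.8 against 0 to 1.35, and the pseudogene LOC101014688 was 2.83 and 4.73 against 0 to 0.955. All 3 were higher in the muscle-rich females, as most TPM3 transcripts were, and how the counting split reads between near-identical copies is not given in the sources used here. The split of reads between transcripts of 1 gene that share exons is uncertain in the same way.

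TPM4 encodes a form of non-muscle and smooth muscle cells and was the exception. Its X3 (XM_017952275.2), on the plus strand of NC_018170.2 from 14717049 to 14740264, was 40.8 and 34.4 in female 1 and female 2, inside the other females' range of 27.4, 42.5 and 95.4. X1 was 1.81 and 0.473 against 0, 1.57 and 6.42. Both transcripts overlapped between the groups in signal that was not rescaled, and this overlap depends on scaling. X3 led in all 8 females, with 95.8% and 98.6% of TPM4 signal against 87.8% to 100%.

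**Figure D2:**
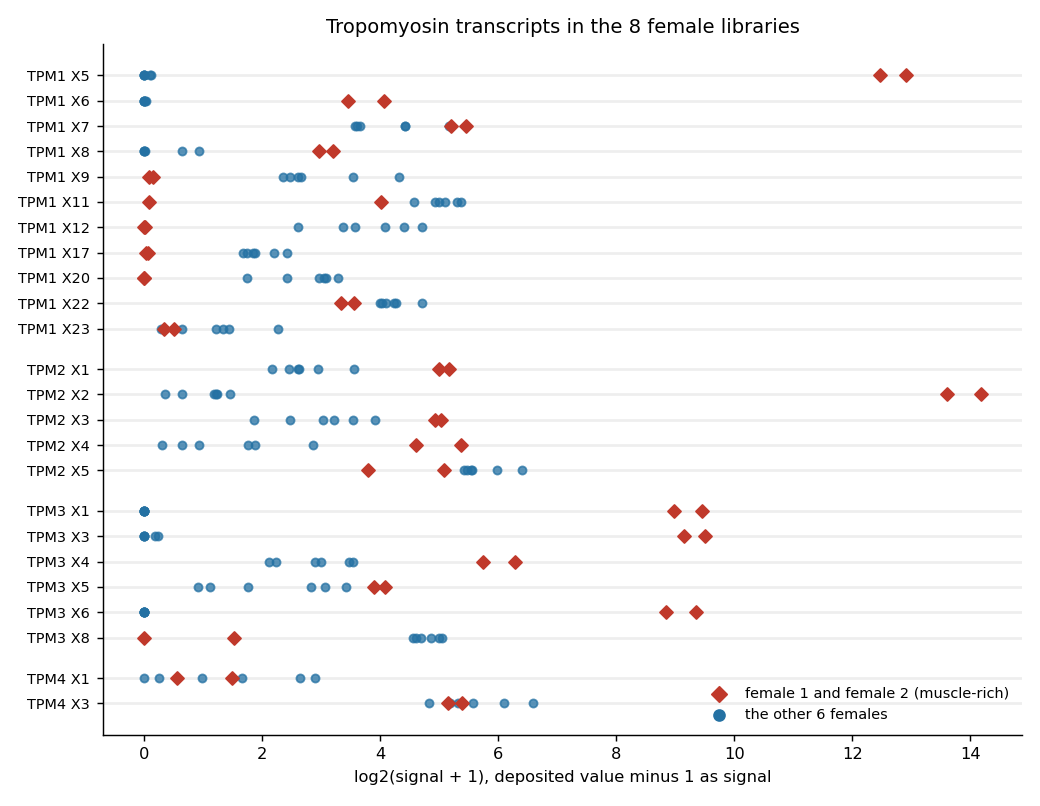
Signal of the 24 transcripts in each of the 8 female libraries, as log2(signal + 1), with red diamonds for female 1 and female 2 and blue circles for the other 6. TPM1 X5 and TPM2 X2 lie farthest to the right in the muscle-rich females, at a signal of 5637 to 18474, and both TPM4 transcripts overlap.

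Counted over the 24 transcripts, 13 were higher in both muscle-rich females than in all 6 others (4 of TPM1, 4 of TPM2, 5 of TPM3), beside 35.1% of all 26644 transcripts. A further 8 were lower in both (6 of TPM1, 1 of TPM2, 1 of TPM3), beside 16% of all transcripts, and 3 overlapped. By share within the gene, 6 of the 24 were higher and 15 lower, beside 16% and 18.5% of the 8183 transcripts of genes with several transcripts and a total signal of at least 10 in every female. These groups were set apart by muscle genes in the same data, so the counts describe the libraries and were not tested.

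The leading transcript differed between both muscle-rich females and all 6 others in 3 of the 4 genes. TPM1 went from X11 to X5, TPM2 from X5 to X2 and TPM3 from X8 to X3, while TPM4 kept X3. Among 2144 genes with several transcripts and enough signal, 4.71% had such a difference in leading transcript.

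**Figure D3:**
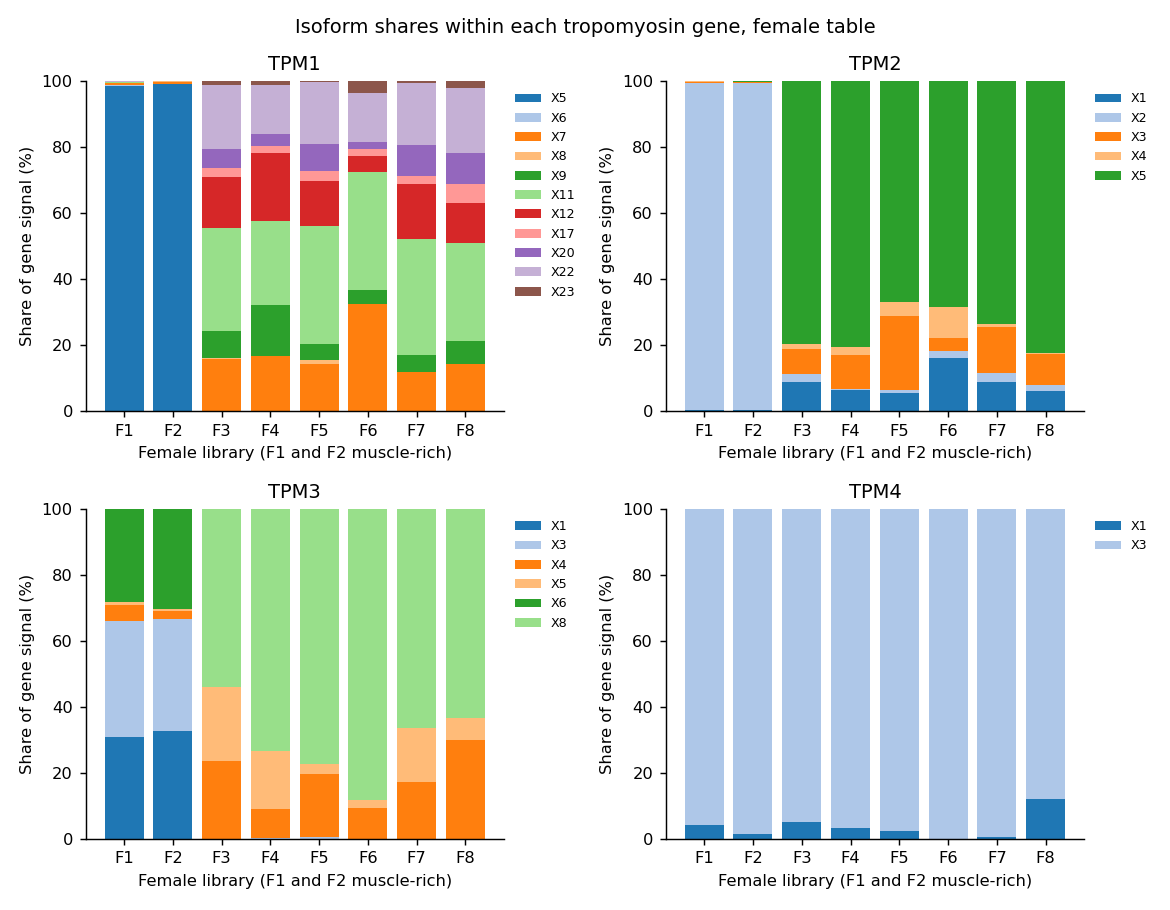
Share of each transcript in the signal of its gene, in percent, for the 8 female libraries, 1 panel per gene and 1 bar per library. In F1 and F2 a single transcript fills over 98% of TPM1 and of TPM2, TPM3 is split among X1, X3 and X6, and TPM4 is mostly X3 in every library.

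The partners of tropomyosin on the thin filament were read from lists. All 14 skeletal thin filament genes were higher in both muscle-rich females than in all 6 others, beside 44.6% of 13851 genes, and 18.2% were lower. ACTA1, the skeletal actin, was 51850 and 81747 against at most 3.26, and TNNT3, the fast troponin T that binds tropomyosin, was 8441 and 10809 against at most 0.275. Of the 19 thin filament genes of non-muscle and smooth muscle cells, 4 were higher and 2 lower. LMOD1, the smooth muscle leiomodin, was 198 and 464 against 10.9 to 38.7, and CFL1, the actin-severing cofilin, was 101 and 71.9 against 121 to 174. Of 7 non-muscle and smooth muscle myosin genes, MYH14 was higher and MYL6 lower.

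Splicing factors known to act on tropomyosin or other muscle exons were read in the same way, and 11 of 15 were higher and 4 lower, beside 44.6% and 18.2% of genes. Of the 4, ESRP1 was at 0 in both against values from 0.00267, less than 1 read is worth, so its place there is uncertain. RBFOX1, a muscle and brain factor, was 61.5 and 90.9 against at most 0.284, and RBM24, a striated muscle factor, was 248 and 200 against at most 0.574. QKI was 182 and 156 against 7.99 to 13.8. Of the lower ones, PTBP1, a repressor of muscle exons including those of tropomyosin, was 62.5 and 45.7 against 67.5 to 89.5. ESRP2, an epithelial factor, was 0.237 and 0.316 against 12.7 to 26.5. The part of these factors in the tropomyosin shares was not tested.

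With male 6 included, 10 transcripts could be followed in all 17 libraries. None of the 10 was higher in all 3 muscle-rich libraries than in the other 14, beside 12.8% of 17119 transcripts, since the transcripts that were highest in the muscle-rich females are not analysed here in males. Of the 10, 5 were lower in all 3 (TPM1 X9, X12, X17 and X20, and TPM3 X8), beside 12.4%. TPM3 X8 was 0 in male 6 against 22.9, 29.4 and 34.9 in the other 8 males. TPM1 X20 was 0.00016 in male 6, X12 was 0.00337, X17 was 0.00774 and X9 was 0.0832. All 5 values of male 6 were under the signal worth 3 reads.

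X11 was 7.28 and X22 was 8.50 in male 6, so these 2 were the TPM1 transcripts above that limit there apart from X23 at 0.951. The summed signal of the 7 TPM1 transcripts was 16.8 in male 6, against 72.7, 81.7 and 130 in the other males and 65.3, 78.0 and 109 in the other females. Within this sum X22 took 40.9% in female 1, 94.2% in female 2 and 50.5% in male 6, against 12.0%, 19.8% and 23.3% in the other 14 libraries. X11 took 57.6%, 0.562% and 43.3%, against 18.1%, 35.9% and 53.1%. X22 thus held a larger share of these 7 in all 3 muscle-rich libraries, and X11 did not separate them.

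TPM2 X5 was 29.3 in male 6, inside the range of the other males of 25.0, 41.8 and 84.2. TPM4 X1 was 0.00397 against 0.243, 1.92 and 4.85. The lower TPM2 X5 seen in the muscle-rich females was thus not seen in male 6, in signal that was not rescaled. Summed signal was 540174 in male 6 against at most 440508 in the other 14 libraries, so this overlap depends on scaling.

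**Figure D4:**
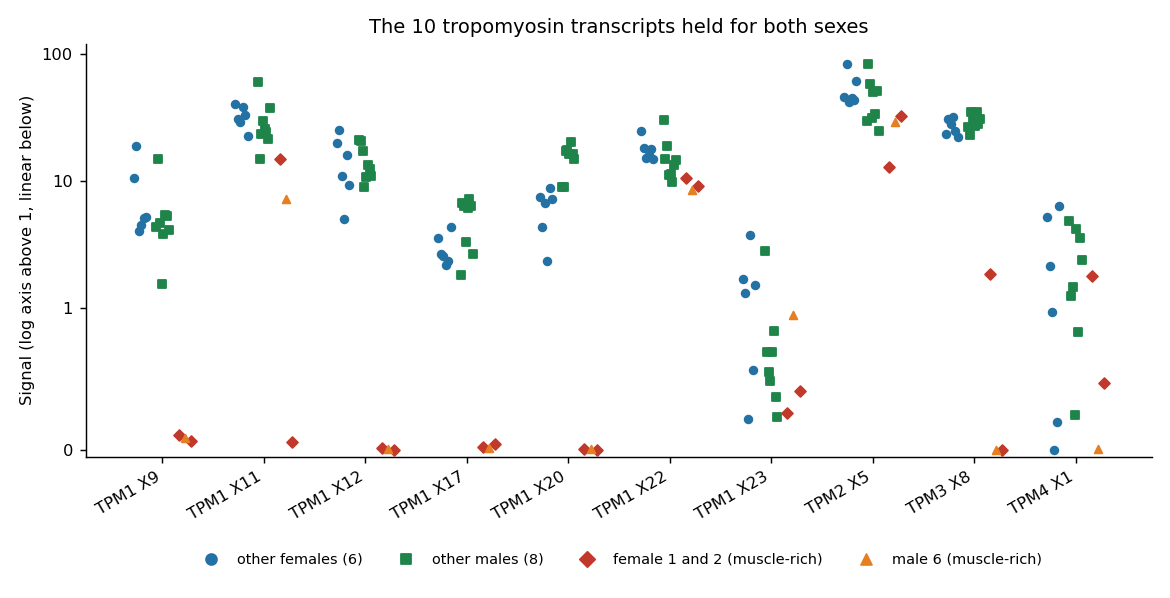
Signal of the 10 transcripts held for both sexes in all 17 libraries, on an axis that is logarithmic above 1 and linear below, for 6 other females (blue), 8 other males (green), female 1 and female 2 (red) and male 6 (orange). TPM1 X9, X12, X17, X20 and TPM3 X8 sit near 0 in the muscle-rich libraries, apart from TPM3 X8 at 1.87 in female 1, and TPM1 X20 is higher in the other males than in the other females.

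The comparison of the sexes, the one the study was designed for, was made with limma on log2(signal + 1) over all transcripts in both tables, with Benjamini-Hochberg adjustment. With all 17 libraries none of the 9 tropomyosin transcripts that passed the filter was called (TPM1 X23 did not pass), beside 8.63% of 15573 transcripts. At an unadjusted p under 0.05 the count was 1, TPM1 X20, beside 3970 of the 15573 transcripts. At gene level only TPM1 was a sum, over its 7 transcripts in both tables, and TPM2, TPM3 and TPM4 were there by the single transcripts X5, X8 and X1, so no total of these 3 genes was tested between the sexes. None of the 4 was called by limma, beside 13.6% of 9415 genes. At an unadjusted p under 0.05 there were 0 of the 4, beside 2766 of the 9415. None of 6 isoform ratios within TPM1 was called, beside 1.06% of 9551. Of the 6, 1, that of X20, had an unadjusted p under 0.05, beside 1384 of the 9551. Since all transcripts tested had a median difference of −0.28 (female minus male, log2), differences are to be read against that shift.

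Without the muscle-rich libraries 1 of the 9 was called, TPM1 X20, beside 28.2% of 14734 transcripts. X20 was 2.33, 7.03 and 8.76 (lowest, median, highest) in the 6 other females and 8.98, 16.3 and 20.2 in the 8 other males. The sexes did not overlap, although the highest female and the lowest male were close. The means were 6.16 ± 2.37 (SD, n = 6) and 15.1 ± 4.03 (SD, n = 8). On the log2(signal + 1) scale the difference was −1.20 (SE 0.25, limma adjusted p = 0.0026), against a median of −0.34 over all transcripts in the same fit. With all 17 libraries it was −1.45 (SE 0.61, limma adjusted p = 0.14), and leaving out male 6 alone gave −1.89 (limma adjusted p = 0.0088). That last fit kept female 1 and female 2, with X20 at 0.00075 and 0, so muscle-rich libraries stood on the female side alone. Sex and muscle content cannot be told apart in it, and it called 2872 of 15360 transcripts.

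X20 of the 14 libraries was also called against the males of either library series alone, at −1.08 for series A (limma adjusted p = 0.038) and −1.42 for series B (limma adjusted p = 0.016). These fits called 1575 of 12736 transcripts for series A and 2230 of 10589 for series B. Their median differences over all transcripts were −0.28 and −0.42. With age as a term beside sex in the 14 libraries X20 was −0.98 (SE 0.76, limma adjusted p = 0.95), and no transcript was called. With age in the fit of all 17 libraries the sign turned, to 1.97 (SE 1.44, limma adjusted p = 0.67). As a share of the 7 TPM1 transcripts, X20 took 3.22%, 8.32% and 11.2% in the other females and 6.91%, 20.5% and 24.8% in the other males. The shares overlapped, and the log2 ratio of X20 to the rest of TPM1 differed by −1.39 (SE 0.38, limma adjusted p = 0.052), beside 4.43% of 8718 ratios called.

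**Figure D5:**
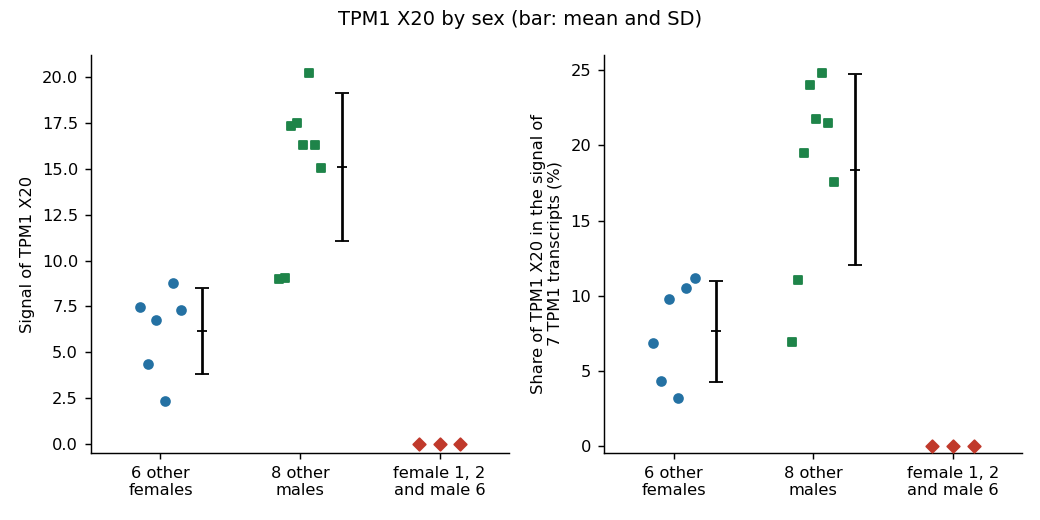
Signal of TPM1 X20 (left) and its share of the 7 TPM1 transcripts held for both sexes in percent (right), with 1 point per library and black bars for the mean and SD of the other females and other males. The signal of the 8 other males starts at 8.98, just above the highest other female at 8.76, whereas the shares overlap, and the 3 muscle-rich libraries lie near 0.

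Proximal tubule markers differed between the sexes in the same 14 libraries. The 8 proximal tubule markers summed to 174 to 2596 in the other females (median 1152) and 2706 to 5753 in the other males (median 3953), with none at 0 in all other females. All 8 were called higher in males, beside 37% of 9195 genes, and 5 of 8 with median scaling, beside 15.1%. The 5 thick limb markers summed to 1825 to 11548 and 2869 to 10274, and 2 of them, CLDN16 and CLDN10, were called higher in males, or 1, CLDN16, with median scaling. The 3 smooth muscle and pericyte markers in both tables summed to 38.9 to 352 and 19.6 to 216, and 0 of 3 were called in either fit. The part of these cell types in the difference of TPM1 X20 was not tested.

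The other 8 tropomyosin transcripts tested were not called in the 14 libraries. TPM1 X17, which shares the downstream start region with X20, was 2.19, 2.64 and 4.33 in the other females and 1.82, 6.27 and 7.23 in the other males, with a difference of −0.55 (SE 0.26, limma adjusted p = 0.13). Without male 1, which held the lowest value of the other males, X17 was called at −0.70 (limma adjusted p = 0.039), beside 3749 of 14139 transcripts. Over the 14 fits that each left out 1 library, its limma adjusted p ran from 0.039 to 0.21, so the call rests on leaving out that male. X22, the third transcript from the downstream start, was 15.0, 17.0 and 25.0 in the other females and 9.80, 14.1 and 30.3 in the other males, and differed by 0.24 (SE 0.22, limma adjusted p = 0.43). When each library was also scaled to its median, X22 passed the threshold at 0.66 (limma adjusted p = 0.044), X20 stood at −0.82 (limma adjusted p = 0.025), and the TPM1 total passed at 0.40 (limma adjusted p = 0.032) beside 19.5% of transcripts and 30.3% of genes. The transcripts from the downstream start thus did not share 1 direction. X20 and X22 have the same span, and how reads were split between such transcripts is uncertain, so their separate levels are too.

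TPM1 X11, the leading TPM1 transcript of the other 6 females, differed by 0.21, with 2 SE either side reaching from −0.28 to 0.69. TPM3 X8 differed by −0.13 (−0.41 to 0.14), TPM2 X5 by 0.30 (−0.21 to 0.80) and TPM4 X1 by −0.16 (−1.11 to 0.78). These intervals depended on scaling. With median scaling of the same 14 libraries TPM1 X11 stood at 0.64 (0.19 to 1.08), TPM2 X5 at 0.73 (0.16 to 1.29) and TPM3 X8 at 0.29 (0.030 to 0.56), none of which passed the threshold after adjustment (limma adjusted p of 0.056, 0.082 and 0.13).

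Partner genes were fitted by the sum of their transcripts in both tables, which for some is only a part of the gene. In the other 6 females SRSF1 averaged 28.4 by that sum, against 37.8 to 63.1 over the table of females. MYL6 averaged 112 against 170 to 235. Among partner genes in both tables, 2 of 15 non-muscle and smooth muscle thin filament genes were called with all 17 libraries, both higher in males, beside 13.2% of 9415 genes called higher in males, a share near that of the list. The list median was −0.37 against −0.28 over all genes tested. CNN3, an acidic calponin, differed by −1.01 (limma adjusted p = 0.022) and CAPZA1, an actin capping subunit, by −0.61 (limma adjusted p = 0.047), and both calls were lost with median scaling. None of 6 myosin genes and none of 11 splicing factors was called there. In the 14 libraries the counts were 3 of 14 thin filament genes, among them CAPZA2 at −1.30 and CAPZA1 at −0.83, none of 6 myosin genes and 3 of 11 splicing factors, MBNL2 at −1.01, SRSF1 at −0.76 and PTBP3 at −0.62. All 6 were higher in males, beside 39.3% of 9195 genes called, 37% higher in males and 2.27% higher in females. With median scaling added, CAPZA2 and CAPZA1 were still called higher in males, the 3 splicing factors were not, and MYL6, a myosin light chain, and CELF1, a splicing factor, were called higher in females, at 0.37 and 0.41 (limma adjusted p of 0.044 and 0.027). In that fit 15.1% of genes were called higher in males and 15.2% higher in females.

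Across the 14 libraries without muscle-rich samples, the genes most like each tropomyosin were found by Pearson correlation of log2(signal + 1), centred within sex, among the 2378 candidates (2379 for TPM4) whose signal reached 10 in all 14. Gene signal was again the sum over transcripts in both tables. Points share library, depth and tissue makeup, and no test was made. For TPM2, here its transcript X5, they were ACTA2, the smooth muscle actin (r = 0.91), CSRP1, a LIM protein of smooth muscle (0.87), and ADIRF (0.72). ADIRF rested on the males, with r = 0.85 there and 0.094 in females. For TPM1, over 7 transcripts, they were SDC2, a cell-surface proteoglycan (0.90), MOB1A, a Hippo pathway component (0.87), and CADM1, an adhesion molecule (0.87).

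For TPM3, by its X8, the 3 genes were CAMKK2, a calcium-dependent kinase (0.87), LOC101018365 (0.86) and IDH3G, a mitochondrial dehydrogenase subunit (0.84). For TPM4, by its X1, which was low in all libraries, they were OPLAH (0.85), UMOD, the thick limb protein uromodulin (0.84), and LOC101001096 (0.82). Among the TPM1 transcripts themselves, X11 and X17 had r = −0.84 and X9 and X12 had r = 0.73 over the same 14 libraries. X11 also ran against TPM2 X5 (r = −0.73), whereas X17 ran with it (r = 0.64). The split of reads between TPM1 transcripts is uncertain, so these values are too.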

How the data were processed

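Stranded mRNA libraries were sequenced, 1 per animal, and sex and age were read from the labels. In the 2 deposited tables, 1 for each sex, the authors give every transcript a signal in each library and a module colour, per the file headers. Partek is named in the submitters' processing notes. The aligner, the scaling and the build are not given in the sources. Here 17119 complete rows of males were held. Of the low values under 2, between 32.1% and 60.3% per library were whole multiples of 1 step (tolerance 0.00003). That is too few to rebuild whole reads, so a count test was not used. Since 1 step per library recurred over many transcripts, signal was taken as not length-corrected, which the sources do not state.

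The offset of 1 was subtracted and the tables were joined by identifier. Kept were transcripts that reached a signal of 1 in 8 or more libraries. They were fitted with limma 3.58.1 in R 4.3.3 (log2 of signal plus 1, variance trended on the mean), and isoform ratios as log2 of transcript over the rest of the gene with 0.5 added to each. The threshold was a Benjamini-Hochberg adjusted p under 0.05 over all features. Such fold changes understate the change of low transcripts. The code was tested on simulated data. Muscle-rich libraries were described without a test. Pseudocount, filter, scaling, trend, age, library series and each library in turn were varied. Fits of the 14 libraries with age, by library series or without 1 library were chosen after seeing the data.

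Named were all tropomyosin transcripts, the 3 genes most like each, and the 2 called genes of each list with the smallest adjusted p. Other genes of the lists were named after their values were seen. The members and lists were chosen with earlier results of these data known.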

Additional observations from a re-analysis of the deposited data

Results flagged for a closer look

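In 6 of 40 groups of values tested, 1 library stood apart from the rest of its sex, with a gap to the nearest other library larger than Dixon's 95% criterion allows. Chance gives about 5% of such groups if they are independent, which these were not, as the TPM1 sum holds X12 and X20. Male 6 and female 2 had also been set apart beforehand by muscle genes, so the count is no test of them. Of the 6, 4 were the muscle-rich male 6 as the lowest of 9 males. TPM3 X8 was 0 there with the next male at 22.9, TPM1 X20 was 0.00016 with the next at 8.98, TPM1 X12 was 0.00337 with the next at 8.94, and the sum of 7 TPM1 transcripts was 16.8 with the next at 72.7. TPM1 X11 was 0.0544 in the muscle-rich female 2, with female 1 next at 15.0. TPM1 X23 was highest in male 1 at 2.82, with male 6 next at 0.951.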

How the results depend on the processing

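Over all transcripts, 1344 were called with all 17 libraries, 876 with a pseudocount of 0.1, 661 with a minimum signal of 10, 337 with median scaling, 371 with upper quartile scaling, 4156 without the 3 muscle-rich libraries and 2875 when median scaling was added to that. With age as a term 1 was called, and 0 without the muscle-rich libraries. Against males of series A alone 477 were called and against series B alone 1. Leaving out 1 library gave 566 to 2872, the highest without male 6.

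Of the tropomyosin transcripts 0 were called with all 17 libraries, 1 without the muscle-rich ones, 2 with median scaling added to that, and 1 in those libraries against either series A or series B. Leaving out 1 library gave 0 to 1 of the 17-library fits, X20 without male 6, where female 1 and female 2 were kept. It gave 1 to 2 of the 14-library fits, where X17 joined without male 1. In the 14-library fits TPM1 X20 ran from −1.31 to −1.0 (limma adjusted p from 0.0016 to 0.007). Of the 4 genes at gene level 0 were called, and 1, TPM1, with median scaling without the muscle-rich libraries. Leaving out 1 library gave 0 to 0. Of the partner genes 2 were called, 1 with a pseudocount of 0.1, 6 without the muscle-rich libraries, 4 with median scaling added, and 0 with median scaling, upper quartile scaling, age, series A or series B alone, or age without the muscle-rich libraries. Leaving out 1 library gave 1 to 4, the highest without male 6.

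Of all isoform ratios 101 were called, 45 with a pseudocount of 0.1, 386 without the muscle-rich libraries, 0 with age in either set of libraries, 1 with series A and 2 with series B. Leaving out 1 library gave 20 to 165. Of the tropomyosin ratios 0 were called, and leaving out 1 library gave 0 to 1 in both sets. With all other 16 kept, the 1 was TPM1 X20 without male 6 (−1.74, limma adjusted p = 0.046). That fit thus kept female 1 and female 2, and it called 165 of 9335 ratios.

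Several differences that were not called changed sign, and the cause was not tested. With a pseudocount of 0.1 TPM1 X9 was −0.25, and the ratio of X11 was −0.19, or −0.34 with a minimum signal of 10. TPM4 X1 was 0.14 with median and 0.083 with upper quartile scaling, and the TPM1 total was 0.021 with median scaling. Without the muscle-rich libraries TPM1 X11 was 0.21. With median scaling added it was 0.64, TPM3 X8 0.29, TPM1 X12 0.30, TPM4 X1 0.055 and the TPM1 total 0.40. With age TPM1 X11 was 1.64, X12 2.93, X17 1.20, X20 1.97, TPM3 X8 3.72, TPM4 X1 0.68 and the TPM1 total 1.69, and the ratios of X11, X12, X17, X20 and X22 were −0.058, 2.13, 0.053, 0.95 and −1.38. With age and without the muscle-rich libraries TPM2 X5 was −0.048 and TPM1 X11 was 0.054. Against series A alone TPM1 X9 was −0.24, X22 −0.082 and TPM2 X5 −0.18. Against series B alone TPM3 X8 was 0.024, TPM1 X12 0.046, and the ratios of X11 and X12 were −0.12 and 0.071. Leaving out 1 library, TPM1 X9 ran from −0.28 to 0.32, TPM2 X5 from −0.11 to 0.26, TPM1 X11 from −0.54 to 0.26, TPM4 X1 from −0.31 to 0.10 and the ratio of X11 from −0.17 to 0.49.

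Other females had a median X11 share of 38.3% over 7 TPM1 transcripts and 33.0% over 11, and for X22 these were 22.2% and 18.8%. Shares per transcript length were not run, since no transcript lengths are given in the sources used here. No paired analysis was possible because replicate numbers follow accession order and pair no animals. Transcripts under the signal worth 3 reads cannot be told from absent at this depth.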

Other observations

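The authors' deposited table of females gives each transcript a co-expression module colour. All 13 tropomyosin transcripts that were higher in both muscle-rich females carry the colour blue, in a module of 11110 transcripts (41.7% of the authors' deposited table). The other 11 were spread over 4 modules in the authors' deposited table, with 5 in tan, 3 in grey60, 2 in darkorange and 1 in cyan. TPM1 alone fell into 5 modules, its early-ending transcripts and X7 in blue, X12, X20 and X22 in tan, X11 and X17 in grey60, X9 in darkorange and X23 in cyan. These colours rest on the same libraries, the muscle-rich ones included as far as the table shows.

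For males, as far as held here, the authors' deposited table puts the 10 tropomyosin transcripts into 5 colours, 4 in purple, 3 in pink and 1 each in black, blue and greenyellow. TPM1 X20 is the one in blue there and TPM3 X8 the one in black. Colours are named separately in each table, so the same colour in both says nothing of shared members.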
